A study of Mus musculus with 6 samples.

Results

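Proteoglycans, elastic fibre proteins and matricellular proteins form most of the extracellular matrix that is not collagen. The 56 genes described here were taken as a named list of such genes, set by what their proteins do and not by a measured threshold. The list was drawn up with earlier results of these data known, so its levels beside those of all genes are description only. They were sorted into 9 matrix classes, and all 56 were found among the 25039 genes of the deposited table. RNA came from mouse embryonic fibroblasts (MEFs), primary cells grown from embryos, of 2 groups with 3 libraries each: wild type (WT) MEFs and Anp32e null (Anp32e-/-) MEFs, which lack the H2A.Z histone chaperone ANP32E. Both groups were below passage 8 and were grown as adherent cells in DMEM with 10% FBS and antibiotics, with no other treatment. The labels number the replicates 1 to 3 and do not say how many embryos stand behind them. Libraries were made from total RNA with a stranded kit.

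The values are 1 pooled number per transcript: reads divided by the size factor of the library and averaged by the authors over the 6 libraries, named the mean normalized count below. A mean of this kind has no error between libraries and does not separate WT from Anp32e-/- MEFs, so a gene that differs between the genotypes has a mean at neither level. No comparison between genotypes is made here. Where a gene has several transcripts, the one with the highest mean stands for it. To compare genes, the mean was divided by the length of the transcript in kilobases, and this quantity is the level. Intervals are 95% Poisson intervals of the mean over the 6 libraries. They cover counting error only and leave out the spread between cultures. They are approximate because they treat normalized counts as reads, although the size factors (0.909 to 1.13) are close to 1. Anp32e itself, the deleted gene, had a mean normalized count of 2190 over both genotypes together, which does not check the deletion.

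In connective tissue, fibroblasts secrete these proteins, and enzymes outside the cell cross-link or trim them. Fibrillin microfibrils form a scaffold on which elastin is laid down with the help of fibulins and lysyl oxidases, and latent TGF-beta binding proteins tether TGF-beta to the same microfibrils. Proteoglycans carry chains of chondroitin, dermatan, keratan or heparan sulfate, which hold water or bind growth factors. Matricellular proteins act less as structure than as signals that alter how cells grip the matrix.

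The label of the cells was checked first. A mean normalized count of at least 10, the limit used here, was reached by 56.9% of all 25039 genes. Of 11 fibroblast markers, 10 had a mean normalized count of at least 10, among them Vim (330695), Col1a1 (26142), Col1a2 (23592) and Thy1 (5164), and Fap, at 3.22, did not. All 8 mesothelial markers also passed 10, with Krt19 at 7400 and Msln at 381, as did all 6 smooth muscle genes, with Acta2 at 415857 and Tagln at 140677. Of the other lists, 3 of 6 epithelial, 3 of 6 endothelial, 2 of 6 macrophage, 2 of 6 skeletal muscle, 4 of 6 chondrocyte, 1 of 6 osteoblast, 2 of 3 tendon and 1 of 5 neural crest and glial genes passed 10. Single genes of these lists were well expressed, with Kdr (endothelial) at 2958, Acta1 (skeletal muscle) at 4711, Scx (tendon) at 1528, Runx2 (osteoblast) at 1188, Col2a1 and Sox9 (chondrocyte) at 577 and 233, and Cd68 (macrophage) at 257. Other genes of the same lists were low or at 0, with Cdh5 at 3.54, Ptprc at 3.09, Epcam at 5.12 and Myod1, Myf5, Col9a1, Ibsp, Tnmd and Foxd3 at 0. The part of other cell types in the levels below was not tested, and in bulk RNA fewer cells of a type cannot be told apart from less RNA per cell.

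Most of the 56 matrix genes were expressed, over a very wide range. A mean normalized count of at least 10 was reached by 53 of the 56 (94.6%), against 56.9% of all 25039 genes. A mean of at least 1000 was reached by 32 members (57.1%), against 28.8% of all genes. Lum, Eln and Mfap4 were the 3 members below 10. Levels of the 56 ran from 0.544 for Lum to 32166 for Thbs1. The median level was 353 over the 56 members, and 146 over the 18742 genes that had reads and a transcript length. By level, 35 members stood above the 50th percentile of those genes, 15 stood above the 90th and 4 (Lum, Acan, Eln and Mfap4) below the 25th. None of them was among the 100 highest genes by level, whereas Thbs1, Fn1, Fbln2 and Sparc were among the 100 highest by mean normalized count. The members together held 1.25% of the summed mean normalized counts of all genes, and 0.469% of their summed levels per kilobase. The sum of levels includes very short RNAs with high values, such as Rpph1 (319 bases, level 3808238) and Rmrp (271 bases, level 1573674).

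**Figure D1:**
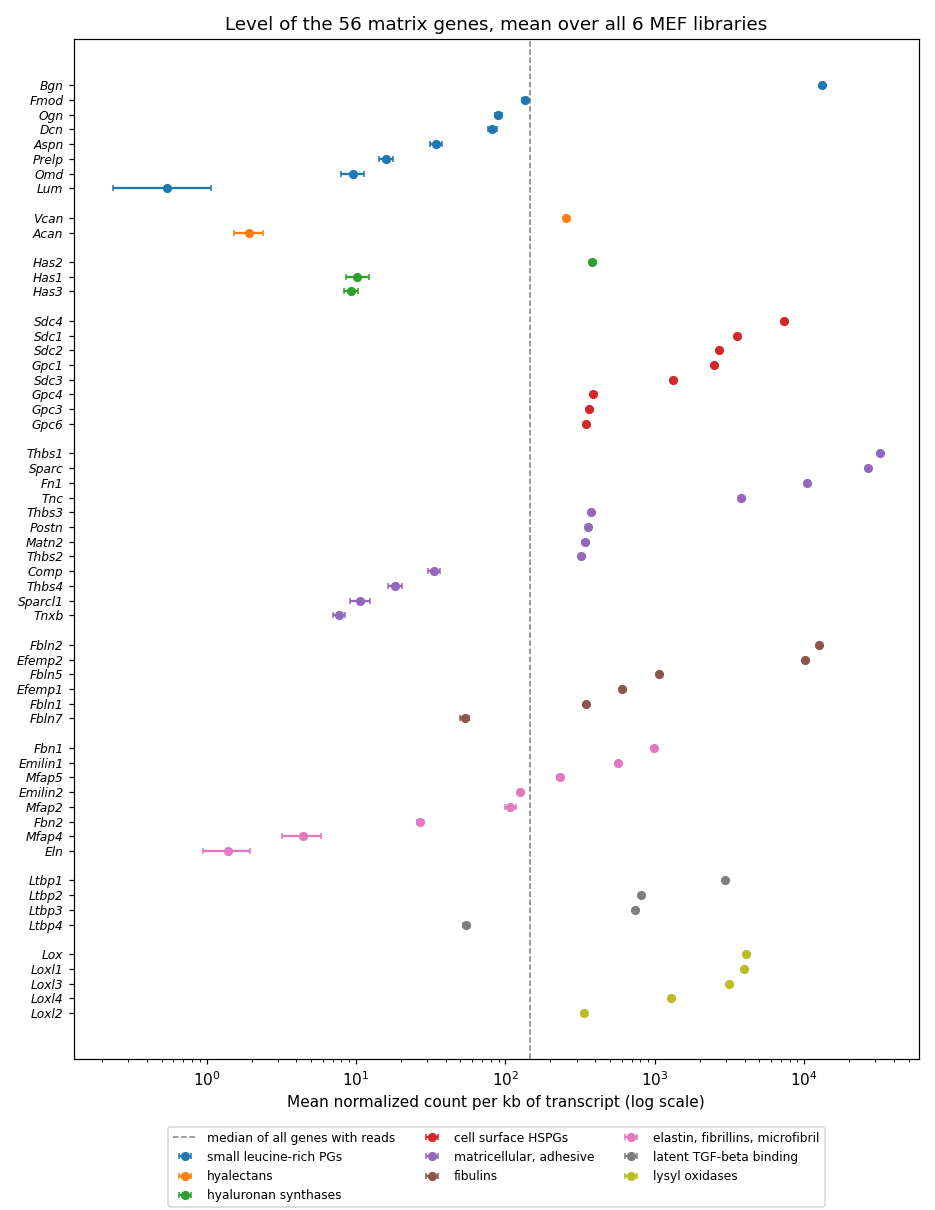
Level of each of the 56 matrix genes, as mean normalized count per kilobase of transcript on a log axis, grouped by class; points are the mean over all 6 libraries and bars are 95% Poisson intervals of counting error. Every class except cell surface heparan sulfate proteoglycans (HSPGs) and lysyl oxidases has members on both sides of the dashed line, the median of all genes with reads (146). PGs are proteoglycans.

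**Figure D2:**
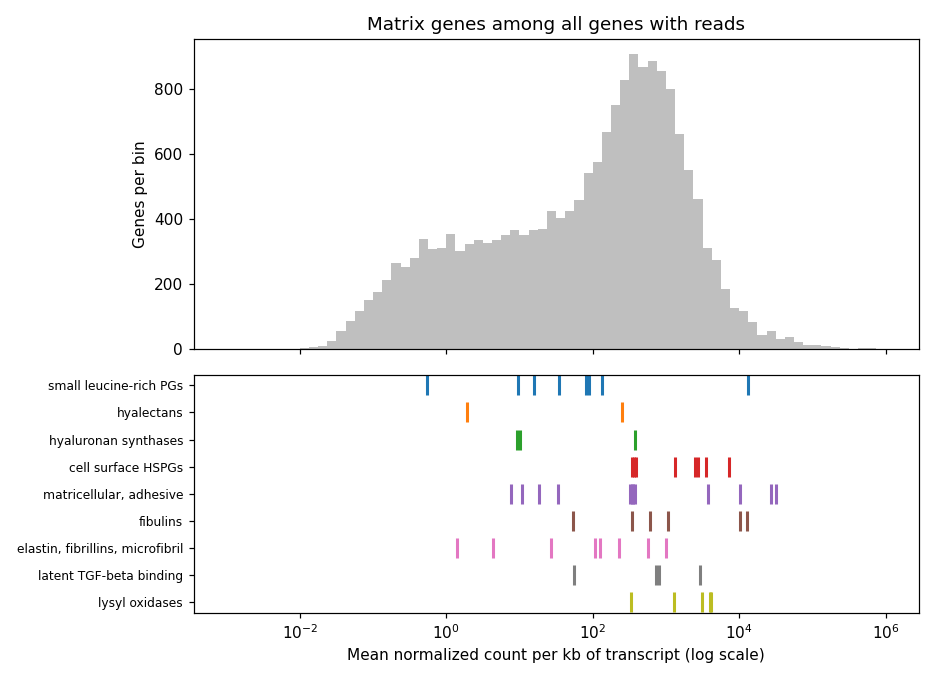
Upper panel: number of genes with reads in each bin of mean normalized count per kilobase (log axis). Lower panel: the matrix genes on the same axis, 1 tick per gene and 1 line per class; 35 of the 56 lie above the median of all genes with reads, and Thbs1, the highest, reached 32166.

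A few genes carried most of the signal. The 6 members with the highest levels, Thbs1, Sparc, Bgn, Fbln2, Fn1 and Efemp2, made up 69.5% of the summed level of all 56, and the 28 lowest members made up 1.98%. The classes differed in how far a single gene dominated. Bgn held 97.3% of the level of the small leucine-rich proteoglycans, Vcan 99.2% of that of the hyalectans and Has2 95.1% of that of the hyaluronan synthases, whereas the highest gene held 39.5% among the cell surface heparan sulfate proteoglycans (Sdc4) and 32.1% among the lysyl oxidases (Lox). In the order of levels, 19 of the 55 neighbouring pairs had counting intervals that overlapped. For most members, with no value per library, the order of closely placed genes was not tested against replicate error. Values per library, recovered for 12 low members as set out at the end, cover 10 of the 55 pairs. The ranges over the 6 libraries overlapped in all 10. The higher gene was above the lower in 2 (Omd over Has3) to 5 (Prelp over Sparcl1, Mfap4 over Acan) of the 6 libraries. These libraries hold both genotypes, so the ranges are not replicate error alone.

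**Figure D3:**
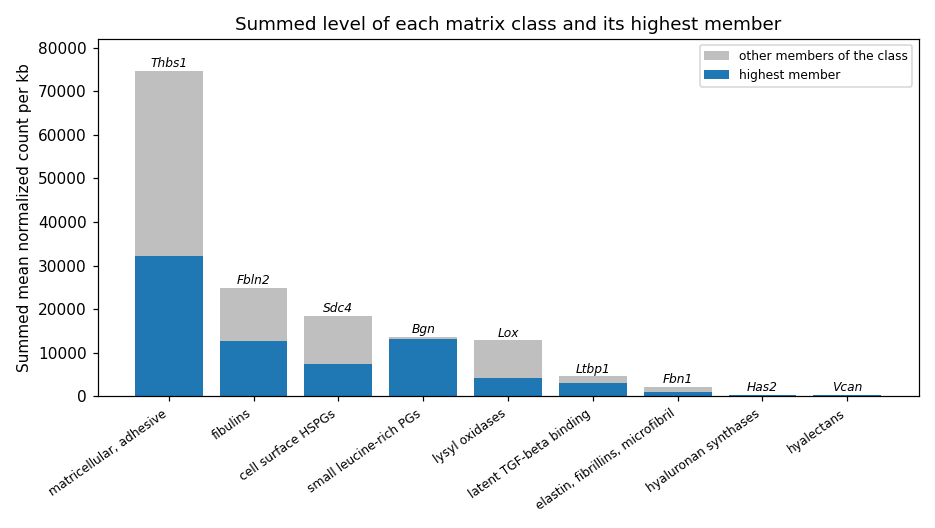
Summed mean normalized count per kilobase of each matrix class (full bar, linear axis from 0), with the part held by its highest member in blue and the name of that gene above the bar. The matricellular and adhesive class is the tallest, and Bgn fills nearly the whole bar of the small leucine-rich proteoglycans.

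Matricellular and adhesive glycoproteins had the largest summed level, 49.2% of the members' total over 12 genes. Thbs1, thrombospondin-1, an adhesion-modulating protein that can activate latent TGF-beta, had a mean normalized count of 188107 (187760 to 188454) and a level of 32166. Sparc, a collagen-binding protein secreted by remodelling tissue, followed at a level of 26884, so that Thbs1 stood 1.196 times above it. Fn1, fibronectin, which cells assemble into fibrils through integrins, reached 10396, and Tnc, tenascin-C, a large glycoprotein of wounds and developing tissue, 3756. A second tier lay close together, with Thbs3 at 377, Postn (periostin, an integrin ligand) at 359, Matn2 (matrilin-2, a filament-forming adaptor) at 339 and Thbs2 at 322. The remaining 4 genes were low, with Comp (thrombospondin-5 of cartilage and tendon) at 33.4, Thbs4 at 18.2, Sparcl1 at 10.7 and Tnxb (tenascin-X, a partner of collagen fibrils) at 7.73.

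Close relatives within this class therefore had very unequal levels. Among the thrombospondins, Thbs1 stood 100.04 times above Thbs2, 85.4 times above Thbs3 and 1765 times above Thbs4. Tnc stood 486 times above Tnxb, and Sparc 2512 times above Sparcl1.

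Fibronectin RNA is spliced at 3 places, the EDB exon, the EDA exon and the V region, and the table lists 7 Fn1 transcripts that differ there. A read was counted on every transcript whose exons it touched, so the transcripts of a gene carry nearly the same number, and the difference between a pair that differ by a single exon counts the reads that lie wholly inside that exon. The 7 values ran from 82243 to 86443. The sequences of the EDB exon, the EDA exon and the first 75 bases of the V region are shown because the differences below count reads that fall on them. All 3 are coding and lie on the minus strand of GRCm38, as exon 25 at chr1:71613763-71614035 (EDB), exon 33 at chr1:71603660-71603929 (EDA) and part of exon 40 at chr1:71597673-71597747 of the 46-exon GENCODE model. Capitals mark the alternative segment, and the 12 lower-case bases on either side are what adjoins it in the longest transcript.
EDB exon: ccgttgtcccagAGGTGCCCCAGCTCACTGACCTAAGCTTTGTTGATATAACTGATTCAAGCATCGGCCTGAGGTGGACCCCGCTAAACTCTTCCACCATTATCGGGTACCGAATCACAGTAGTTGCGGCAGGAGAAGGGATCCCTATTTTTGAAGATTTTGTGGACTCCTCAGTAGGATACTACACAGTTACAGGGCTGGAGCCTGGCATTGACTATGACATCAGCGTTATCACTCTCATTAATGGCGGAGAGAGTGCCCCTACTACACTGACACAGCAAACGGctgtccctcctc
EDA exon: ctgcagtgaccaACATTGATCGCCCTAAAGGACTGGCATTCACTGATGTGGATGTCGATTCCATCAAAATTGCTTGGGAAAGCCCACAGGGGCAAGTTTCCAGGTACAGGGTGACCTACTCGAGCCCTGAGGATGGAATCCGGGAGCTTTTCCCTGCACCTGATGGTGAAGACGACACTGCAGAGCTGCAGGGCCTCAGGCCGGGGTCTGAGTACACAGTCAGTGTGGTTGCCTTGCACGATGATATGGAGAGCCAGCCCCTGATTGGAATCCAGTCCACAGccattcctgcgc
V region, first part: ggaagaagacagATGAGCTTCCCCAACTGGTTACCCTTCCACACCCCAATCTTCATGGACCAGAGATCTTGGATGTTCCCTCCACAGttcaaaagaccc

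Inside the 273 bases of the EDB exon the mean normalized count was 303 (290 to 318). Inside the 270 bases of the EDA exon it was 719 (698 to 741), the same in each of the 3 pairs of transcripts that differ by that exon. These exons are almost equally long, so a similar share of the reads from each fits within it, and the EDA count was 2.37 times the EDB count (2.24 to 2.503, exact binomial interval for counting error). The whole V region, at 360 bases, held 3177, of which 13.2 is the difference between transcripts with and without the 75 bases shown. The paper's reads were longer than 75 bases, so an untrimmed read cannot lie wholly inside this segment. Being longer than the other segments, and read together with its neighbours in the same exon, the V region is given without a comparison. Reads that span a junction of 2 exons can fall on both transcripts of a pair, so all these counts miss part of the use of the exons. Reads that run from an exon into an intron add to the counts, and their share was not tested.

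Fibulins, which bridge elastin, microfibrils and basement membranes, held 16.4% of the summed level, and all 6 passed a mean of 10. Fbln2, of basement membranes and vessel walls, was highest at a level of 12629, with a mean normalized count of 60443. Efemp2, fibulin-4, which brings lysyl oxidase to tropoelastin, reached 10168. Fbln5, the integrin-binding fibulin of elastic fibres, lay at 1075, Efemp1 (fibulin-3) at 603 and Fbln1 at 348. Fbln7 was the lowest at 53.4. The 2 transcripts of Fbln1, which differ in their last exons, had mean normalized counts of 1272 and 1138. Reads on exons that both share count for each, so these are not separate levels of the 2 forms.

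Elastin, fibrillins and microfibril-associated proteins spanned levels from 1.39 to 987, and 6 of 8 passed a mean of 10. Eln, encoding tropoelastin, had a mean normalized count of 5.35 (3.65 to 7.53) and a level of 1.39. This was 32 reads in all over the 6 libraries. Fbn1, the main fibrillin of microfibrils, had a level of 987, which was 711 times that of Eln and 36.7 times that of Fbn2 (26.9), the fibrillin of embryonic tissue. Emilin1, at the surface of elastic fibres, reached 568 and Emilin2 126. Among the microfibril-associated glycoproteins, Mfap5 lay at 231, Mfap2 at 108 and Mfap4, a partner of tropoelastin, at 4.397. The 8 genes of this class held 1.35% of the summed level.

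Latent TGF-beta binding proteins held 3.004% of the summed level. Ltbp1, a carrier of latent TGF-beta1, was at a level of 2947, Ltbp2, which binds fibrillin and not TGF-beta, at 813, Ltbp3 at 741 and Ltbp4, the form tied to elastic fibre assembly, at 54.8. Ltbp1 thus stood 53.8 times above Ltbp4. The long form of Ltbp1 had a mean normalized count of 19659 and the short form 19121, so that nearly all reads fell on exons that both share. The 3 transcripts of Ltbp4 ran from 198 to 295, and reads on shared exons count for each of them.

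All 5 lysyl oxidases, the copper enzymes that oxidize lysines so that collagen and elastin cross-link, stood above the median of all genes. Lox (4107), Loxl1 (3954, the relative needed for elastic fibre upkeep) and Loxl3 (3124) were close to each other, Loxl4 was at 1281 and Loxl2 at 338. Lox stood 12.2 times above Loxl2, the smallest spread from highest to lowest gene of the 9 classes. Loxl3 overlaps exons of Htra2 on the opposite strand over 13.1% of its transcript, and Htra2 had a mean of 6037. The share of Loxl3 reads from Htra2 was not tested.

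Cell surface heparan sulfate proteoglycans, which hold growth factors at the membrane, held 12.2% of the summed level, and their lowest member stood above the median of all genes. The 4 syndecans, which span the membrane, had levels of 7297 (Sdc4, a component of focal adhesions), 3574 (Sdc1), 2709 (Sdc2) and 1315 (Sdc3). Of the glypicans, anchored by a lipid, Gpc1 reached 2477, whereas Gpc4 (385), Gpc3 (365) and Gpc6 (346) lay close together. Gpc4 and Gpc3 adjoin each other on chromosome X, where Bgn also lies.

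Small leucine-rich proteoglycans bind collagen and limit the width of its fibrils, and 7 of 8 passed a mean of 10. Bgn, biglycan, with chondroitin or dermatan sulfate chains, had a mean normalized count of 31912 (31769 to 32055) and a level of 13192. The next was Fmod, fibromodulin, at 135, so that Bgn stood 97.9 times above it. Ogn (osteoglycin) lay at 89.9 and Dcn, decorin, the closest relative of biglycan, at 81.8, 161 times below Bgn. Aspn (asporin) lay at 34.5, Prelp at 15.8 and Omd (osteomodulin) at 9.58. Lum, lumican, was the lowest of the 56 at 0.544, from 8 reads in all.

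Genes of this family stand in clusters in the genome. Dcn and Lum share chr10:97479500-97572703, Aspn, Omd and Ogn share chr13:49544443-49624501, and Prelp and Fmod share chr1:133910304-134048280 (GRCm38). Levels within a cluster were unequal, with Dcn at 81.8 and Lum at 0.544, and Ogn at 89.9 and Omd at 9.58. Bgn lies apart from these clusters.

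Hyalectans are large chondroitin sulfate proteoglycans that bind hyaluronan. Vcan, versican, of soft connective tissue, had a level of 253, and Acan, aggrecan, of cartilage, 1.92, a ratio of 132. Versican RNA takes 4 main forms by the use of 2 long exons that carry the attachment sites of the chains, GAG-alpha (2880 bases) and GAG-beta (5217 bases). The form with both exons (V0) had a mean normalized count of 3148, that with GAG-beta only (V1) 2597, that with GAG-alpha only (V2) 1511 and that with neither (V3) 952. Reads on shared exons count for every form, and the models shorten in the same order (12427, 8332, 5702 and 2321 bases). These counts therefore do not rank the forms by abundance. The difference in count between forms with and without GAG-beta was 314 per kilobase of that exon (308 to 320). For GAG-alpha it was 191 (185 to 198). The ratio was 1.64 by one pair of transcripts and 1.63 by the other. The transcript models of the first pair also differ in 1508 (GAG-beta) and 1215 (GAG-alpha) bases elsewhere, and those of the other pair in 794 and 501. Reads there add to the differences in count, although the divisor was the length of the exon alone. The intervals do not cover this. Reads that run from these exons into an intron add to the differences in count too, as for Fn1.

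Of the 3 hyaluronan synthases, the membrane enzymes that extrude hyaluronan, Has2 had a mean normalized count of 1604 and a level of 379. Has1 (10.2) and Has3 (9.24) were 37.0 and 41.0 times lower, and their intervals, 8.57 to 12.2 and 8.27 to 10.3, overlapped.

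Other genes of the same pathways were read from 4 further lists. For comparison, 56.9% of all 25039 genes had a mean of at least 10. All 34 enzymes that build or modify glycosaminoglycan chains passed a mean of 10, with the highest levels for Sulf1 (1997), which trims heparan sulfate, B3gat3 (1736), which completes the linker to the core protein, and Ext2 (1605), which extends heparan sulfate. All 8 genes of hyaluronan breakdown passed 10, with Hexa at 3577 and Hyal2 at 1433. Of 28 other matricellular and elastic fibre genes, 22 passed 10, led by Ccn2 (31440), Ccn1 (24717) and Spp1 (20831), with no read for Vtn. Of 27 other proteoglycans and hyaluronan binders, 14 passed 10, led by Cd44 (4380), the hyaluronan receptor, Tsku (1091) and Hspg2 (843, perlecan), with no read for Kera or Spock1. Median levels of the 4 lists, in the order given, were 482, 811, 137 and 4.39, with genes without reads included. A count of 0 allows up to 3 reads over the 6 libraries by a one-sided 95% limit, a mean of 0.5.

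For 12 low members the reads in each library could be recovered from the mean itself, because 1 read adds a different fixed amount to the mean in each library. The table gives no name for these libraries, so they carry no genotype and are numbered by that amount. Comp ran from 18.2 to 161 normalized counts over the 6 libraries with a median of 69.5, Tnxb from 35.2 to 135 with a median of 59.9, Thbs4 from 16.5 to 111 with a median of 57.6, and Omd from 8.76 to 47.6 with a median of 18.8. Acan had no read in 1 library and 29.5 normalized counts in the highest. These members varied over the libraries by more than counting error, with a variance 10.4 (Omd) to 50.7 (Comp) times the mean. Prelp ran from 30.4 to 86.6 with a median of 59.6.

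By the ratio of variance to mean, the other low members varied less. Has1 ran from 15.03 to 26.7 with a median of 21.5, Has3 from 41.9 to 71.6 with a median of 50.5, Sparcl1 from 20.3 to 45.1 and Mfap4 from 3.54 to 11.002 with a median of 7.86. For Has1 and Mfap4 the variance was 1.21 and 0.821 times the mean, near the value of 1 that counting alone gives. This ratio was higher for Eln (3.07), Sparcl1 (2.46), Lum (2.33) and Has3 (2.19). By fold from lowest to highest library, Eln (6.60) ran wider than Omd (5.44). Eln was detected in each library, with 1.77 to 11.7 normalized counts, and Lum in 3 of the 6, with 0 to 3.80. Without library 2 the mean of Lum was 0.837 in place of 1.33.

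**Figure D4:**
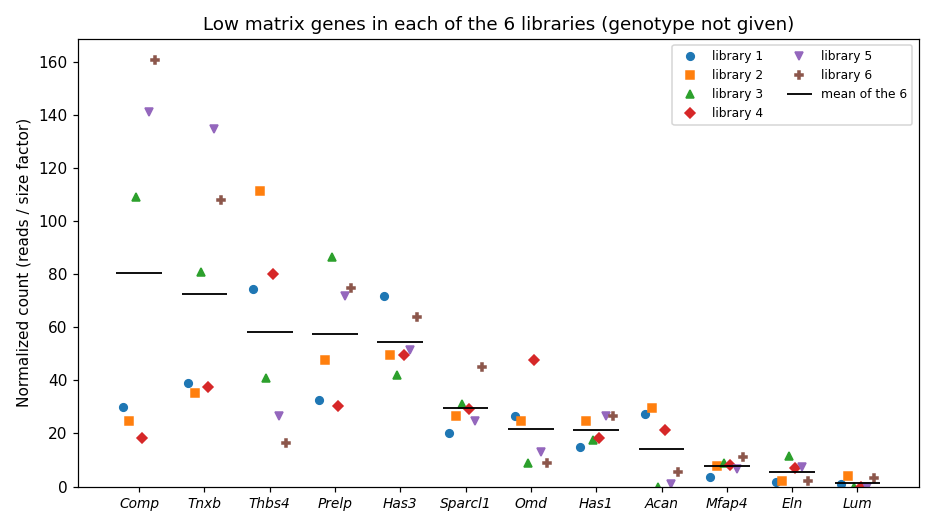
Normalized count (reads divided by the size factor, linear axis) of 12 low matrix genes in each of the 6 libraries, with the mean as a black line; markers tell libraries apart, and their genotype is not given. Comp spans 18.2 to 161 and Has1 15.03 to 26.7.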

How the data were processed

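The authors aligned reads to mm10 with STAR, used featureCounts of Subread for reads per RefSeq transcript, and ran DESeq2 with default settings. The strand setting of the counting is not given in the sources used here. The deposited table has 42361 transcripts. Its values used here are a signal per transcript, the authors' mean of normalized counts over 6 libraries, not divided by length and not filtered. Its other 5 columns hold the authors' comparison of the genotypes and were not used, so no test between genotypes was made. It gives 0 columns of values per sample, so library totals are unknown.

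Transcripts were matched to symbols through RefSeq (GRCm38.p6, the mm10 build), and 163 were unmatched. The transcript with the highest mean stands for its gene. Lengths came from GENCODE M21. For 4 of the 56 members (Has3, Ltbp2, Tnc and Postn) the length is that of another transcript of the gene. Exons and their sequences came from GENCODE M21 on GRCm38. By GENCODE, exons of 19 members share bases with another gene, on at least 10% of the transcript for 3 (Gpc1, Loxl3 and Ltbp2), though the RefSeq models used for counting can differ.

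The 6 lowest means above 0 were taken as the worth of 1 read in each library. All 4232 transcripts with a mean of 2 or less and above 0 were whole-number sums of these, within 1e-14. Members with a mean below 85 were then solved for whole reads, and 12 of 13 had a single solution (not Aspn). This step was chosen after seeing the data and was tested on simulated data. The simulated means were built from the same 6 amounts used to solve them, so error in those amounts was not tested. A single solution was required there only for lower means than those of Has3, Prelp, Thbs4, Tnxb and Comp. The members, classes, marker lists and related lists were chosen with earlier results of these data known. The text names all 56 members, and from each related list the 3 genes with the highest level and those without reads, except that 1 gene is not reported here. Htra2 was named after its value was seen. Python 3.11.15, numpy 2.4.6, pandas 2.3.3, scipy 1.17.1 and matplotlib 3.10.9 were used.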

Additional observations from a re-analysis of the deposited data

How the results depend on the processing

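Without division by length, the share of the members' sum was 5.14% for small leucine-rich proteoglycans, 0.495% for hyalectans, 9.12% for cell surface heparan sulfate proteoglycans, 56.9% for matricellular and adhesive glycoproteins, 13.7% for fibulins, 2.06% for elastin, fibrillins and microfibril-associated proteins, 4.56% for latent TGF-beta binding proteins and 7.77% for lysyl oxidases. Without the highest gene of the class, these shares by level were 0.265%, 0.00127%, 7.74%, 35.6%, 8.81%, 0.707%, 1.08% and 5.90% in the same order, and 0.0129% for hyaluronan synthases. The members' share of all counts was 1.64% as a sum over distinct transcript values, 1.31% among protein-coding transcripts and 0.469% per kilobase. The first of these counts reads on shared exons more than once, for members and for other genes with several transcripts. The median percentile of the members was 65.6 among genes with reads, 62.8 per kilobase and 53.8 among genes with a mean of at least 10. With the same mean divided by the length of the shortest transcript of the gene, the median level was 372, and Vcan moved from 253 to 1385, Fbln1 from 348 to 560 and Ltbp4 from 54.8 to 85.7. Of the 10 highest members by level, 9 were also among the 10 highest by count. A minimum mean of 1 left 56 members detected and one of 50 left 49.

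Leaving out each library in turn could be run for the 12 members with recovered reads, an alternative chosen after seeing the data. All 12 kept their side of a mean of 10. The mean of Lum fell from 1.33 to 0.837 without library 2, and the other 11 moved by at most 1.32 times. For the other members the table gives no value per library, so it could not be run. No paired analysis was possible because the columns carry no replicate numbers. Reads that members share with overlapping genes cannot be separated. Depth limits Lum, Eln and Mfap4 most.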

Other observations

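Comp, Tnxb, Prelp, Thbs4, Omd and Acan had recovered reads that fell into separate sets of libraries, with libraries numbered by the worth of 1 read and no genotype known for any of them. In libraries 1 to 6, Comp had 34, 26, 112, 18, 132 and 146 reads, Tnxb 44, 37, 83, 37, 126 and 98, and Prelp 37, 50, 89, 30, 67 and 68. For these 3 genes, libraries 3, 5 and 6 held the 3 highest normalized counts. Thbs4 had 84, 117, 42, 79, 25 and 15 reads, Omd 30, 26, 9, 47, 12 and 8, and Acan 31, 31, 0, 21, 1 and 5. For these 3 genes, libraries 1, 2 and 4 held the 3 highest normalized counts.

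Has1 had 17, 26, 18, 18, 25 and 24 reads, Has3 81, 52, 43, 49, 48 and 58, Sparcl1 23, 28, 32, 29, 23 and 41, Mfap4 4, 8, 9, 8, 6 and 10, Eln 2, 2, 12, 7, 7 and 2, and Lum 1, 4, 0, 0, 0 and 3, with neither set of 3 libraries on top. The difference between these sets was not tested, since the sets come from the values themselves.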
